A study of Mus musculus with 8 samples.

Results

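Chromatin bound by APOBEC2 was examined at places where 1 region of enrichment lies beside the boundaries of at least 2 genes. Peaks of the 6 immunoprecipitated libraries were merged into 5567 regions where they overlapped by at least 1 base on chromosomes 1 to 19, X and Y. Members were chosen by the presence of peaks and by position: a merged region was kept if at least 2 of the 6 libraries had a peak in it and if 2 or more protein-coding genes had a boundary, start or end, no further than 1 kb from it. The 32 such regions with a peak in all 3 libraries of 34 h and in none of 14 h were left out by the rule. This gave 334 shared-boundary regions, of which 330 were near exactly 2 genes and 4 near 3 genes, with 658 distinct genes on 20 chromosomes. The same rule with 1 gene in place of 2 gave 1102 single-gene regions, which serve as the comparison. Because presence of a peak and distance to genes chose the members, neither is a finding here.

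The libraries came from C2C12, an immortalised line of mouse myoblasts, which in low serum stop proliferating and form multinucleated myotubes. All samples were placed in 2% horse serum to start differentiation. Each of the 2 time groups, 14 h and 34 h after that change by the sample titles, holds 3 libraries from chromatin precipitated with rabbit polyclonal antibodies to APOBEC2 and 1 input library, made without antibody. The growth protocol speaks of harvests at 24 or 34 h, so the earlier time is uncertain. No genotype or transgene is given for any group, but the letters GFPsh stand in the peak names of all 6 lists, and what they mean is not given in the sources used here. The labels do not say whether replicates are separate cultures, so p-values measure the spread between these libraries, which may be technical. No precipitation with a control antibody or from cells without APOBEC2 was analysed here, and peak lists hold no expression values against which the cell type could be checked.

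APOBEC2 is a member of the AID/APOBEC family, whose other members include cytidine deaminases of DNA and RNA. It is abundant in heart and skeletal muscle and has no established deaminase activity. A bidirectional promoter is a stretch of DNA from which a pair of neighbouring genes is transcribed in opposite directions. Such pairs are frequent in mammals, usually lie in CpG-rich DNA without a TATA box, and often include genes for DNA repair, the cell cycle, histones and mitochondrial proteins. Many genes needed in S phase carry E2F sites in the promoter, and many needed in mitosis carry a cell cycle genes homology region (CHR), the element through which the MuvB core of the DREAM complex is held at DNA. DREAM, with E2F4 and a pocket protein, represses these genes when cells leave the cycle. CCAAT boxes, bound by NF-Y, often accompany a CHR.

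The promoters of 6 genes are printed because their regions were among the strongest or belong to textbook gene pairs and had a strand in the promoter table. Each is the RefSeq window on GRCm38.p6, the assembly of mm10, from 250 bases before to 50 bases after a listed transcript start, 5′ to 3′ on the strand of the gene. Capitals mark matches, on either strand, to the E2F sites TTTCCCGC, TTTGGCGC and TTCCCGCC, to the CHR TTTGAA and to CCAAT. The matches are letters found by search and were not tested for binding. Windows of Afmid, at Tk1/Afmid, and of Mrps12, at Sars2/Mrps12, were chosen in the same way but are not printed. The Afmid window held no match, and the Mrps12 window held E2F and CCAAT matches.
Ndc80 (chr17:71526808-71527107, minus strand): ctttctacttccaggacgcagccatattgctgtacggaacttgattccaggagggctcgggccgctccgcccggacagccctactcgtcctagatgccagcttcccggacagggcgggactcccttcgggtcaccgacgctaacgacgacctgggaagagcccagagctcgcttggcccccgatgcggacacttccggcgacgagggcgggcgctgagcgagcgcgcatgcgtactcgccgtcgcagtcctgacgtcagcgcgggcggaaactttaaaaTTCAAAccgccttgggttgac
H4c1 (chr13:23761200-23761499, minus strand): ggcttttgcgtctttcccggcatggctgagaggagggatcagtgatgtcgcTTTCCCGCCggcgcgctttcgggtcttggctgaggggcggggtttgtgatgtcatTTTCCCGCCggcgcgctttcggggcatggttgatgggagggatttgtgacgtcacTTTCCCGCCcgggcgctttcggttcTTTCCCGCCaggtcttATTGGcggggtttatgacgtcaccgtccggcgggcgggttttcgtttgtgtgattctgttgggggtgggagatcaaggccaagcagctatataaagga
D17H6S56E-5 (chr17:35000697-35000996, minus strand): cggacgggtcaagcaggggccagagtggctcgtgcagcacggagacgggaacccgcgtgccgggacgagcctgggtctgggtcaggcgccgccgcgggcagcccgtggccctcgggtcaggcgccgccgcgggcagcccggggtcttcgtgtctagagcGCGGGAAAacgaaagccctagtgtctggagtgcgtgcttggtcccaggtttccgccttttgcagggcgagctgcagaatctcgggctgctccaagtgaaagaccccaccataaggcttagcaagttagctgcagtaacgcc
H2bc12 (chr13:22035571-22035870, plus strand): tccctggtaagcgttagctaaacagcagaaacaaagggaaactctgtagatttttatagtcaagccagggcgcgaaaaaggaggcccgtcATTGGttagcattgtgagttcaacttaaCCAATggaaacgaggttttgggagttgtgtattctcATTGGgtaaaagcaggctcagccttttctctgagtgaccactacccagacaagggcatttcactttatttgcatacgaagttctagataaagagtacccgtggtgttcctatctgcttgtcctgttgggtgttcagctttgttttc
Ncapd2 (chr6:125191537-125191836, minus strand): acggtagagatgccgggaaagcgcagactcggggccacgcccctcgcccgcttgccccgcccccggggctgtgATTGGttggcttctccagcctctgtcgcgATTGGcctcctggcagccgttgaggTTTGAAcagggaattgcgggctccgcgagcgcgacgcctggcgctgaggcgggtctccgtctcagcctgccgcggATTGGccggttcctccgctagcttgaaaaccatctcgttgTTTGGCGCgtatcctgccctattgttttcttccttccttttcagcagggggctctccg
Ppat (chr5:76951529-76951828, minus strand): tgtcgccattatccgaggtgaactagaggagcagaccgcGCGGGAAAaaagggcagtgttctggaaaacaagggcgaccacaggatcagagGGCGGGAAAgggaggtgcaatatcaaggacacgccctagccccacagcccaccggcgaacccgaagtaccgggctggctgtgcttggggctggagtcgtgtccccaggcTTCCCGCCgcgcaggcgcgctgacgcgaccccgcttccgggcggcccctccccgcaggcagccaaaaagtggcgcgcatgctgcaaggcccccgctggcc

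Ndc80, a microtubule-binding subunit of the kinetochore, faces Spdya, an activator of cyclin-dependent kinases. The median summit over the 6 libraries lay 8 bases after the listed Ndc80 start, and a CHR match on the other strand began at position 30 counted from that start. The H4c1 window, from a gene for histone H4, held E2F matches beginning at -199, -144, -89 and -64, around the summit at -127. The window of H2bc12, a histone H2B gene, held no E2F or CHR match and CCAAT matches at -160, -132 and -96, with the summit at -182 beside the boundary of H2ac12 at -178. The Ncapd2 window, from a gene for a condensin subunit, held a CHR match at -123, an E2F match at -8 and 3 CCAAT matches, with the summit at -99. This window did not reach the facing boundaries of the pair. The boundary of Mrpl51 lay at -614, and the summit was 415 bp from the outer boundary of Ncapd2. The Ppat window, from a gene for the first committed step of purine synthesis, held E2F matches beginning at -211, -159 and -50, with the summit at -95. For H4c1 and Ppat, overlapping E2F matches were given once, by their first base. For D17H6S56E-5 the summit stood at -102 and the E2F match at -91.

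Shared-boundary regions lay mostly at pairs of genes whose starts face each other. Strand was known for both genes at 256 of the 334 regions, and 211 of these lay at such head-to-head pairs. That is 82.4% (exact 95% interval 77.2 to 86.9%). Another 40 lay where the start of a gene meets the end of its neighbour, 5 at neighbouring starts on the same strand, and 0 at tail-to-tail pairs, whose ends face each other. All 256 touched at least 1 gene start.

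The genome offers these orientations in a different mix. Of 4810 close pairs of protein-coding genes, with boundaries at most 2000 bp apart, 3129 had both strands, and 32.1% of those were head-to-head and 33.5% tail-to-tail. A shared-boundary region touched 214 of 1005 head-to-head pairs (21.3%), 6 of 43 pairs with neighbouring starts on the same strand (14%) and 38 of 975 pairs of a start with an end (3.9%). It touched 0 of 1049 tail-to-tail pairs (0%), which allows a share of up to 0.351%, and 0 of 57 pairs with neighbouring ends on the same strand (0%). Over all close pairs, 337 were touched, or 7.01%, and 79 of 1681 pairs without both strands were touched (4.7%). For scale, 7.91% of 21887 protein-coding genes had a boundary within 1 kb of any kept region, shared or single-gene. Single-gene regions were likewise at starts, in 886 of 899 cases with a strand (98.6%).

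**Figure D1:**
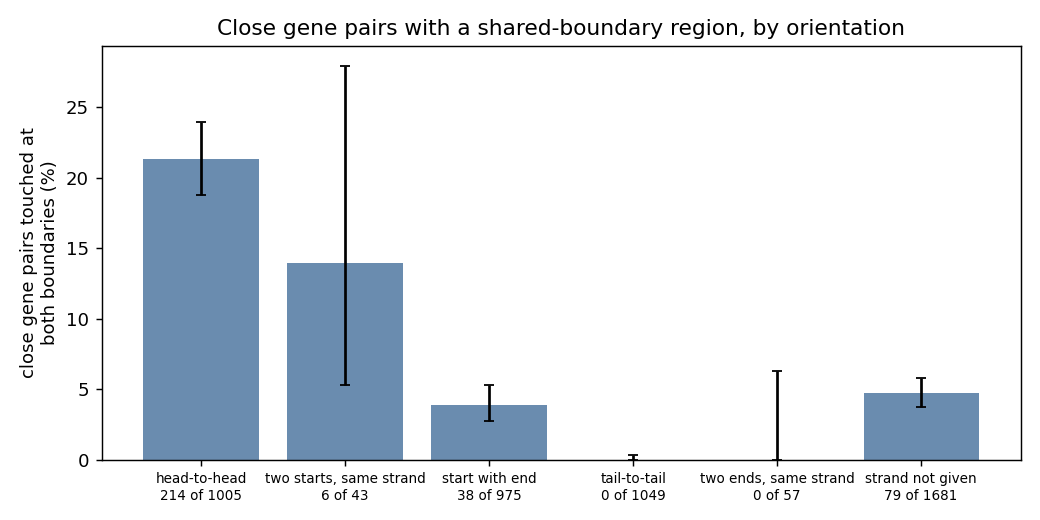
Share of close gene pairs touched at both boundaries by a shared-boundary region (y axis, percent), by orientation of the pair (x axis), with exact 95% intervals as error bars that cover counting error only. Head-to-head pairs reach 21.3%, start with end 3.9%, and tail-to-tail pairs 0%.

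Among head-to-head pairs the share touched was lowest where the starts were over 1000 bp apart. Pairs with starts up to 250 bp apart were touched in 142 of 605 cases (23.5%, exact 95% interval 20.1 to 27.1%), those over 250 and up to 500 bp apart in 44 of 173 (25.4%, 19.1 to 32.6%), and those over 500 and up to 1000 bp apart in 23 of 118 (19.5%, 12.8 to 27.8%). Beyond 1000 bp, 5 of 109 were touched (4.59%), a range where the 1 kb rule itself limits what can be counted. The median distance between the starts was 158 bp (interquartile range 68 to 287.5) at the 211 head-to-head members and 165 bp over all 1005 head-to-head pairs. Gene bodies overlapped at 73 of the 211. Distance between the starts and mean log2 fold showed no clear relation over the 64 head-to-head members with a peak in every library (Spearman's rank correlation 0.0267, a description across regions of the same libraries).

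Members with a start beside a neighbour's end were bound at the start. In 38 of these 40 regions the median summit was nearer the start, and the exceptions were H2bc15/H2ac15 and Rce1/Gm960. The clearest of these regions lay at Timeless, whose protein protects stalled replication forks and whose start lies 251 bp from the end of Mip, the gene for the lens aquaporin. Its fold was 25.7, 35.2 and 26.4 at 14 h and 21.4, 24.7 and 18.2 at 34 h. Gtse1, a G2 and S phase gene that restrains p53, lies beside Ttc38 and had folds of 23.9, 41.5 and 26.7 at 14 h and 18.6, 23.9 and 13.0 at 34 h. At both genes the highest value came from 14 h replicate 2 and the lowest from 34 h replicate 3. Raw folds were lower at 34 h over all regions, and after centring on each library's median, as described with the comparison of times, neither region was called different between the times (log2 difference 0.03, limma adjusted p = 0.927, and -0.27, adjusted p = 0.259).

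The position of the summit was measured within head-to-head members. By the outer boundaries of the gene table, the median summit lay a median of 99 bp from the midpoint, within 250 bp of it in 162 of 211 regions, and between both starts in 75. With the nearest transcript start of the promoter table in place of the gene boundary, a choice made after seeing the data, the summit lay between the starts in 122 of 211. It was then a median of 57 bp (interquartile range 21.5 to 113.5) from the closer of the starts. Where exactly 1 of the facing genes was on a cell cycle list, the summit was nearer that gene in 44 of 64 regions by gene boundaries (68.75%, exact 95% interval 55.9 to 79.8%). By transcript starts it was nearer in 52 of 64 (81.25%, 69.5 to 89.9%). The median distance was 79.5 bp to the boundary of the cell cycle gene and 179 bp to that of its partner, and the table listed 1.17 starts per cell cycle gene and 1.27 per partner.

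**Figure D2:**
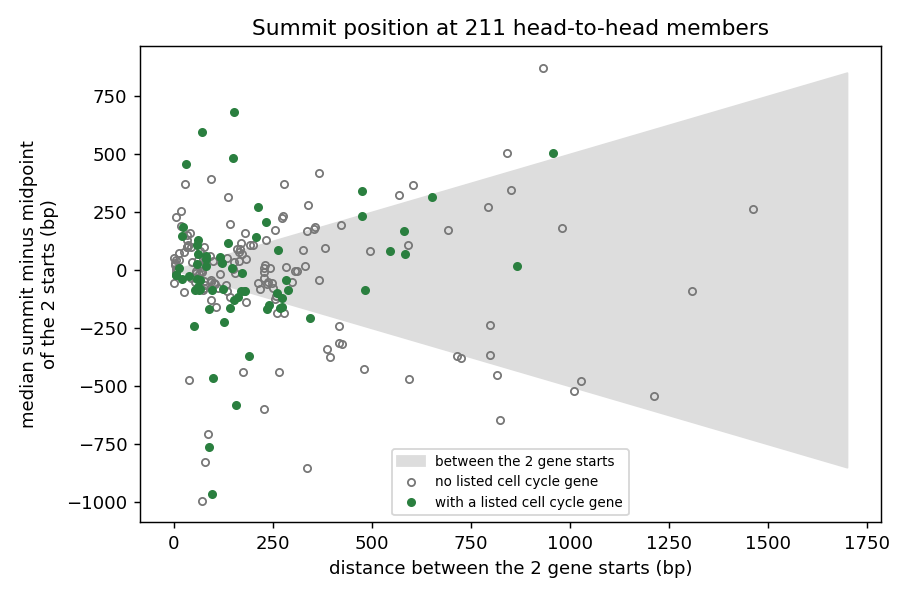
Position of the median summit relative to the midpoint of the gene boundaries (y axis, bp) against the distance between them (x axis, bp) at 211 head-to-head regions, each a point, filled where a listed cell cycle gene is present. The shaded wedge is the stretch between both boundaries and holds 75 summits.

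Summit positions repeated well between libraries. In members with a peak in all 6 libraries, the summits of a region spread over a median of 50 bp (interquartile range 31 to 70), against 48 bp at 267 single-gene regions. The median width was 380.5 bp for members and 362 bp for single-gene regions. By library, 32.7, 30.4 and 30.1% of summits in members lay between the gene boundaries at 14 h and 41.5, 41.6 and 35.9% at 34 h. The means were 31.0 ± 1.42% and 39.7 ± 3.25% (SD, n = 3 each), and the times did not overlap. The difference of 8.64 percentage points had p = 0.1 in a two-sided exact permutation test, the smallest value that 3 against 3 allows. In the members with a peak in every library, a restriction chosen after seeing the data, the difference was 5.28 points (exact permutation p = 0.1).

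The number of libraries behind a member differed widely. A peak was present in 2 libraries at 134 members, in 3 at 29, in 4 at 38, in 5 at 32 and in all 6 at 101. Members numbered 147, 224 and 163 in the libraries of 14 h and 275, 322 and 142 in those of 34 h. List lengths were 768, 1327 and 797 peaks for 14 h against 2209, 5025 and 1068 for 34 h, and the longest list, 34 h replicate 2, also held the most members. A further 285 regions at 2 or more genes had a peak of 1 library only, 228 of them in 34 h replicate 2, and were not members. Without that library 205 regions met the rule, with 88.1% of those with strands at head-to-head pairs and 42.9% with a listed cell cycle gene. Just inside the distance limit lay Zcwpw1/Mepce, Zfp706/LOC115488529 and Fbrs/Prr14, whose second gene was 994, 993 and 992 bp away. Just outside lay Poc1b/Galnt4, Nfkbiz/Nxpe3 and Pcbd2/Txndc15, at 1007, 1018 and 1018 bp.

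At the level of presence, 228 members had a peak at both times, 100 at 34 h only and 6 at 14 h only. Of the 100, 99 included 34 h replicate 2, the longest list, and 89 were the pair of 34 h replicates 1 and 2. List length and time cannot be told apart for them. Their folds were low, with medians of 5.59, 5.92 and 5.65 in the 34 h libraries. Members with a listed cell cycle gene were 93 of 228 at both times and 8 of 100 at 34 h only. The 6 at 14 h only, all head-to-head and all in replicates 2 and 3, were at Cep44/Fbxo8, Rbmxl1/Slc10a7, 4930432K21Rik/Cc2d1a, Rhbdd3/Ewsr1, Csnk2b/Gpank1 and Gm15246/Hccs, with folds from 4.5 to 12.4.

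Summits of members stood on few fragments. The fold here is the caller's linear ratio of fragments to local background at the summit, and the medians of the recovered fragment counts were 24, 29 and 24 at 14 h and 22, 27 and 24 at 34 h. The corresponding medians at single-gene regions were 21, 25 and 23, and 20, 25 and 22. The median log2 fold of members exceeded that of single-gene regions by 0.07 on average (SD 0.07 over 6 libraries). The 6 differences were 0.07, 0.15, -0.03, 0.12, 0.10 and 0.01, higher in 5 of 6 libraries (two-sided exact sign-flip p = 0.09375). Restricted to regions with a listed cell cycle gene, the members' median was lower in all 6 libraries, with a mean difference of -0.10 (exact sign-flip p = 0.03125, the smallest possible). Without such a gene the difference was 0.06 (exact sign-flip p = 0.1875). This split was chosen after seeing the data, by lists drawn up with results of these data known. Its p-values therefore describe and do not test.

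The strongest members were ranked by their lowest fold over the 6 libraries, which is a description. At Spdya/Ndc80 (chr17:71526581-71527199) the fold was 27.5, 49.3 and 31.4 at 14 h and 28.1, 29.7 and 21.4 at 34 h, or 36.1 ± 11.7 and 26.4 ± 4.41 (SD, n = 3). At H4c1/H3c1 (chr13:23761060-23761773), a pair of histone genes, it was 31.1, 56.2 and 30.5 at 14 h and 28.4, 36.4 and 20.2 at 34 h. The times overlapped at both regions, and 14 h replicate 2 was highest. H2ac12/H2bc12 (chr13:22035469-22035923) had folds of 21.6, 28.2 and 19.4 at 14 h and 19.7, 36.2 and 16.8 at 34 h. Here 34 h replicate 2 was highest, and the times again overlapped.

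Other leading regions lay at pairs of genes with different functions. Trip13, an ATPase of the spindle checkpoint, faces Brd9, a SWI/SNF subunit, with 6 bp between the starts. Its region (chr13:73937576-73937990) had folds of 22.1, 24.8 and 25.8 at 14 h and 19.4, 22.3 and 14.4 at 34 h. Parpbp, which restrains homologous recombination, faces the nuclear pore gene Nup37 at 7 bp, with folds of 15.5, 21.1 and 21.8 and then 17.4, 24.3 and 15.8. Cdca2, the gene for the chromosome-bound phosphatase subunit Repo-Man, shares a region with Kctd9, with folds of 27.7, 38.0 and 30.5 at 14 h and 21.5, 31.0 and 13.1 at 34 h. The times overlapped at all 3 regions.

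Some leading pairs held no gene of any list. Nsd2/Gm52782, with the gene for a methyltransferase of histone H3, had folds of 31.4, 33.6 and 20.6 at 14 h and 19.3, 26.5 and 16.9 at 34 h. Pimreg, a mitotic regulator, with Aipl1, a photoreceptor chaperone, had folds of 15.2, 25.7 and 19.4 and then 16.9, 17.3 and 14.2. Srgap2, the gene for a GTPase-activating protein, faces Fam72a, whose protein binds the uracil glycosylase Ung, with folds of 13.4, 20.3 and 16.3 and then 16.0, 17.6 and 14.5. These regions overlapped between the times. Ccdc18/Tmed5 and Aunip/Paqr7 were next, with lowest folds of 10.8 and 10.7. Unlike these, Vars/D17H6S56E-5 and Brd8/Kif20a each held a listed gene. Vars/D17H6S56E-5, at the valyl-tRNA synthetase gene, ranged from 17.3 to 40.1. Brd8/Kif20a, with the gene for a kinesin of cytokinesis, had the highest minimum of any member, from 23.0 to 45.3, at chr18:34624407-34625217, a chromosome for which the promoter table gives no strand or sequence.

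**Figure D3:**
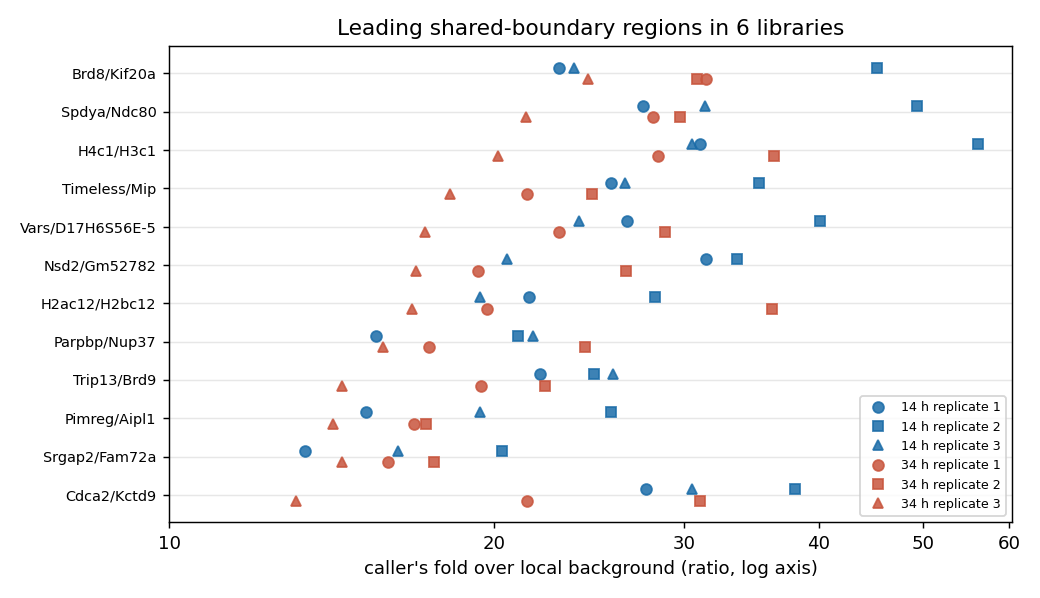
The caller's fold over local background (x axis, ratio, log scale) of the 12 shared-boundary regions with the highest lowest fold, 1 point per library, by time (colour) and replicate (shape). Replicate 2 of 14 h is highest in 9 of the 12 and replicate 3 of 34 h lowest in 9.

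The order of libraries in that plot held for members as a whole. Of the 101 with a peak in every library, 79 had their highest fold in 14 h replicate 2 and 69 their lowest in 34 h replicate 3. Folds of the 101 ranked alike in all libraries, with pairwise Spearman's rank correlations from 0.590 to 0.863, a description across regions.

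Cell cycle genes were common at shared boundaries. Of 400 genes on lists for replication, repair, the kinetochore, the spindle, mitosis, cohesin and condensin, and deoxynucleotide synthesis, 285 (71.2%) had a boundary within 1 kb of a kept region of either kind. At least 1 of them stood at 101 of 334 shared-boundary regions (30.2%, exact 95% interval 25.4 to 35.5%) and at 187 of 1102 single-gene regions (17.0%). A region beside 2 genes has more chances to hold one, and 5.24% of all close gene pairs did. Among close head-to-head pairs, 65 of 89 with a listed cell cycle gene were touched (73.0%), against 149 of 916 without (16.3%). Replication-dependent histone genes were on a list of their own and were not counted as cell cycle genes. The lists were drawn up with results of these data known, so these counts describe and do not test.

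Members with such a gene often had a peak in every library. All 6 libraries had one at 52 of 97 members with 1 listed cell cycle gene (53.6%, exact 95% interval 43.2 to 63.8%), at 3 of 4 with a pair of them and at 46 of 233 with none (19.7%, 14.8 to 25.4%). Their median folds were 11.7, 13.6 and 11.3 at 14 h and 8.86, 11.0 and 8.08 at 34 h. Members without one had 8.48, 9.42 and 8.48, and 6.38, 6.62 and 6.36. The members where both genes were listed included Spdya/Ndc80, Prkdc/Mcm4 and Oip5/Nusap1.

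DNA repair and replication genes stood at members of differing strength. Of 87 listed repair genes, 28 stood at a member and 27 at a single-gene region, while 3.01% of all protein-coding genes stood at a member. At Brca1/Nbr1, where the homologous recombination gene faces an autophagy receptor gene, the fold was 24.6, 36.9 and 25.7 at 14 h and 14.7, 20.9 and 11.3 at 34 h. These raw folds did not overlap, but after centring the region was not called (log2 difference -0.45, limma adjusted p = 0.062). The same pair held a weaker member at the other side, with folds of 6.87 and 8.81 in 34 h replicates 1 and 2. Of 68 replication genes, 19 stood at a member and 35 at a single-gene region. At Pcna/Cds2, with the gene for the sliding clamp, the fold was 8.43, 18.5 and 9.98 and then 8.43, 14.5 and 9.66, with full overlap.

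Mitotic genes were likewise spread over many members. Of 53 kinetochore and checkpoint genes, 17 stood at a member, as did 17 of 84 mitotic regulators and cyclins and 15 of 67 spindle and centrosome genes. More genes of these lists stood at single-gene regions, with 30, 38 and 35. Over all protein-coding genes, 3.01% stood at a member. Cenpp, a centromere protein gene, faces Nol8 and had folds of 18.96, 27.8 and 20.4 and then 15.5, 22.9 and 12.1. Foxm1, the gene for a mitotic transcription factor, lies beside Rhno1, a checkpoint gene, with folds of 13.1, 18.2 and 24.97 and then 22.2, 22.2 and 16.8. At both regions the times overlapped. Of 28 cohesin and condensin genes, 10 stood at a single-gene region and 5 at a member, all 5 with a close neighbour of other function. An example is Smc4 beside the ciliary gene Ift80, with folds of 14.7, 18.99 and 10.4 and then 11.9, 13.7 and 14.0.

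Replication-dependent histone genes, which are made in S phase and lie in dense clusters, were the group in which both neighbours usually belonged together. Of 64 listed histone genes, 25 stood at a member, in 13 regions, against 8 at single-gene regions. Histone genes share near-identical sequence, and how reads that match several of them were counted is not given in the sources used here. Of the 13 regions, 5 had a peak in all 6 libraries. H2ac11/H2bc11 had folds of 10.4, 17.2 and 17.6 at 14 h and 13.5, 22.0 and 10.1 at 34 h, and H3c8/H2ac10 had 6.4, 13.7 and 10.7 and then 7.6, 15.1 and 6.5. The times overlapped at both.

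Genes of other groups also stood at members. Over all 21887 protein-coding genes, 658 did (3.01%). From the lists, 10 of 80 splicing genes, 9 of 167 genes of the mitochondrial ribosome and respiratory chain, 7 of 104 translation factors and tRNA synthetases, 5 of 42 nuclear pore genes and 5 of 38 chaperones stood at a member. For cytosolic ribosomal protein genes the count was 2 of 84, Rpl4 and Rpl37, for proteasome genes 1 of 48 and for muscle genes 2 of 59, shares near that of all genes. Only 42 of these ribosomal, 24 of the proteasome and 12 of the muscle genes had a close neighbour. The shares are of all listed genes and do not allow for this spacing. Myom1, the gene for an M-band protein, faces Myl12a and had folds of 6.5, 6.7, 5.1 and 6.6 in 4 libraries, and Chrnb1, a subunit of the muscle acetylcholine receptor, lies beside Fgf11 with folds of 5.5 and 5.6 in 2. At 185 members no gene was on any list.

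Of 14 gene pairs taken from textbook examples of bidirectional promoters and close pairs, 9 had a member. Ncapd2/Mrpl51 (chr6:125191515-125192022), which pairs condensin with the mitochondrial ribosome, had folds of 21.6, 24.3 and 18.6 at 14 h and 10.9, 16.4 and 9.22 at 34 h. Ppat/Paics (chr5:76951086-76951908), a pair of purine synthesis genes, had 7.18, 14.3 and 8.99 and then 5.94, 7.18 and 4.79. Prkdc/Mcm4 (chr16:15637211-15637848), which pairs a DNA repair kinase with a helicase subunit, had 11.5, 21.5 and 11.6 and then 9.31, 11.8 and 8.74. After centring none of the 3 was called different between the times, with log2 differences of -0.39 (limma adjusted p = 0.131), -0.26 (adjusted p = 0.283) and -0.06 (adjusted p = 0.833).

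Other textbook members were weaker. Tk1/Afmid, with the thymidine kinase gene, had folds of 10.7, 9.52 and 7.80 at 14 h and a peak in 1 library of 34 h, at 6.76. Hspd1/Hspe1, Gart/Son, Aurka/Cstf1 and Sars2/Mrps12 each had peaks in 2 libraries, with folds from 4.13 to 7.49. Atm/Npat had a peak in 1 library, and Surf1/Surf2, Col4a1/Col4a2 and Brca2/Zar1l had no region, the last not being a close pair in the gene table. H2ax, the gene for a histone variant marked at DNA breaks, shared a region with Dpagt1, with folds of 15.5, 22.7 and 21.2 and then 16.6, 24.2 and 10.9.

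Between the times, summits within 1 kb of a boundary of 2 or more genes, in members or not, took a smaller part of each list at 34 h. The lists were longer there on average. Such summits were 19.2, 18.4 and 20.2% of each list at 14 h and 14.5, 11.2 and 16.3% at 34 h. The means were 19.3 ± 0.872% and 14.0 ± 2.58% (SD, n = 3), a difference of -5.27 points (exact permutation p = 0.1, the smallest possible). With all lists cut to the length of the shortest, 768 peaks, the difference was -1.78 points (exact permutation p = 0.2).

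Fold was compared between times with limma over the 428 regions of any kind with a peak in all 6 libraries, each library centred on its median log2 fold. Of these, 59 were higher at 34 h (13.8%) and 36 lower (8.41%) at an adjusted p below 0.05. Among the 101 members tested, 8 were higher and 6 lower, and the median log2 difference was 0.03 against 0.05 over all 428. The shares of members called were no higher than those of all 428 regions. Of the 267 single-gene regions tested, 16 were higher and 30 lower, so that 17.2% were called, against 13.9% of members. A listed cell cycle gene was at 5 of the 8, 4 of the 6 and 55 of the 101 tested. The 8 were at Wrap53/Trp53, Oip5/Nusap1, H2ac7/H2bc7, Slf1/2210408I21Rik, Sclt1/D3Ertd751e, Mospd2/Fancb, Kif18a/Mettl15 and Ift140/Cramp1l. The 6 were at Rpn2/Mroh8, Tacc3/Tmem129, Iscu/Sart3, Zwilch/Rpl4, Nsl1/Tatdn3 and Kif24/Nudt2.

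These calls moved with the background under the peak. The fold divides by this background, and the background was solved from the fold. Regions picked by a change in fold therefore tend to differ in background by arithmetic. Each time has 1 input, which all 3 libraries of that time share, so error in the input is not in the p-values. Over all 428 regions the recovered background rose by a median of 0.59 on the log2 scale from 14 to 34 h. It changed by a median of -0.17 at the 8 members called higher, by 1.31 at the 6 called lower and by 0.60 at the 87 not called. By fragments at the summit in place of fold, limma called 7 of 428 regions higher (1.64%) and 1 lower (0.234%), and 1 member higher and 0 lower. By fragments, 12 members had an unadjusted p below 0.05. Of the 14 members called by fold, 0 were called by fragments, and 13 of the 14 kept their direction. How far input error contributed to these calls was not tested. Without centring, where the median log2 difference over all 428 regions was -0.41, 0 of the 8 members called higher and 5 of the 6 called lower were still called.

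**Figure D4:**
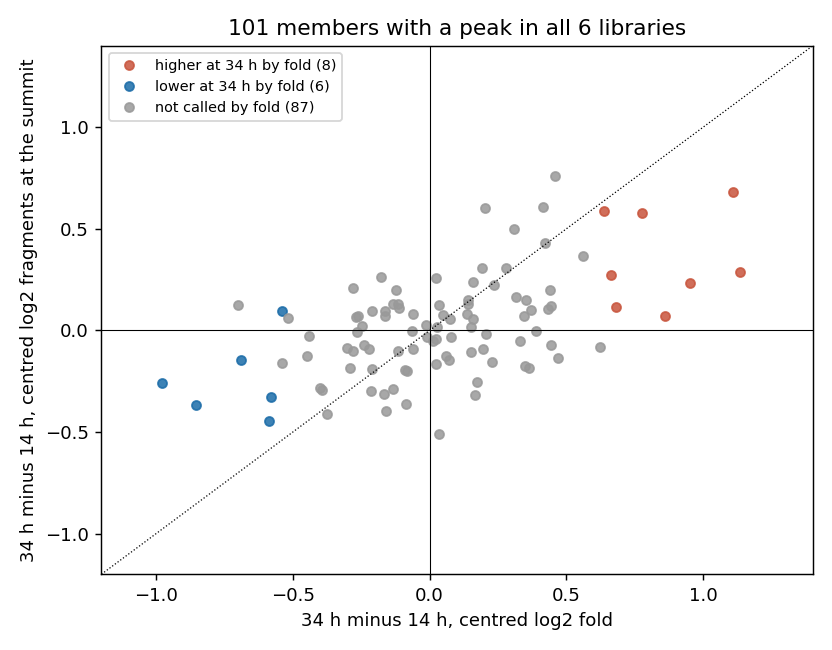
Change from 14 to 34 h in centred log2 fold (x axis) and in centred log2 fragments at the summit (y axis) for the 101 shared-boundary regions with a peak in all 6 libraries, coloured by the limma call on fold, with a dotted line where both are equal. All 14 called regions lie nearer 0 on the fragment axis than on the fold axis.

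The largest rises by fold were as follows. Wrap53/Trp53, where the gene for a telomerase and Cajal body protein faces that for p53, had folds of 4.72, 12.3 and 7.23 at 14 h and 13.8, 14.7 and 8.36 at 34 h, which overlap. Its median summit was not at the facing starts but 916.5 bp from that of Wrap53 and 1014.5 bp from that of Trp53. The centred log2 difference was 1.13 ± 0.21 (SE, limma adjusted p = 0.0048), while mean fragments were 39.7 and 43.3 (log2 difference 0.29, adjusted p = 0.559). Oip5/Nusap1, with genes for centromere assembly and spindle assembly, had folds of 6.01, 7.68 and 8.59 and then 9.95, 16.1 and 9.48, with no overlap. Its log2 difference was 1.11 ± 0.20 (SE, limma adjusted p = 0.0048), and by fragments 0.68 (adjusted p = 0.0688). H2ac7/H2bc7 had folds of 8.15, 13.0 and 12.6 and then 15.6, 20.3 and 11.6, which overlap, with a log2 difference of 0.95 ± 0.18 (SE, limma adjusted p = 0.0048). Slf1/2210408I21Rik, at a gene of the SMC5/6 pathway, had folds of 9.38, 9.79 and 9.64 and then 11.3, 14.8 and 12.1 without overlap, while its mean fragments were 44.7 at both times.

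The largest falls were at Rpn2/Mroh8, with a gene of the oligosaccharyltransferase. Its folds were 30.6, 45.7 and 27.1 at 14 h and 12.3, 17.7 and 8.68 at 34 h, without overlap. The centred log2 difference was -0.98 ± 0.17 (SE, limma adjusted p = 0.0048), mean fragments were 77.7 and 63.0, and the mean background was 1.28 and 3.95 fragments. Tacc3/Tmem129, with a spindle gene, had folds of 14.8, 22.5 and 18.7 and then 9.12, 6.23 and 7.07, also without overlap (log2 difference -0.86 ± 0.23, SE, limma adjusted p = 0.0164). Cep57/Fam76b, with a centrosome gene, had folds of 20.7, 35.3 and 24.6 and then 17.4, 16.0 and 5.77 and was not called (-0.70, limma adjusted p = 0.0577). Iscu/Sart3 and Zwilch/Rpl4 had log2 differences of -0.69 and -0.59. Leaving out each library in turn kept Rpn2/Mroh8, Slf1/2210408I21Rik, H2ac7/H2bc7, Oip5/Nusap1 and Wrap53/Trp53 called in all 6 cases. Tacc3/Tmem129, Iscu/Sart3 and Sclt1/D3Ertd751e stayed called in 4 of 6, with adjusted p up to 0.0746, 0.0756 and 0.0663, Zwilch/Rpl4 and Nsl1/Tatdn3 in 2 of 6, and Kif24/Nudt2 in 0 of 6.

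Other members had a peak in every 14 h library and in the fewest of 34 h. Syne2/Gm40447, Tk1/Afmid, Bag4/Lsm1, Tdp2/Acot13 and Polh/Xpo5 each had peaks in 3 libraries of 14 h and in 34 h replicate 2 alone. Polh, the gene for the translesion polymerase eta, faces the nuclear export gene Xpo5, and its folds were 7.30, 9.52 and 6.14 at 14 h and 4.51 at 34 h. Tdp2, the gene for a phosphodiesterase that frees topoisomerase II from DNA ends, had folds of 6.01, 9.57 and 8.20 and then 6.42. A missing peak does not show absence of binding at this depth.

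The 4 members beside 3 genes were Ubr7/Gm20604/Gon7, Cab39l/Gm45935/Setdb2, Chtf8/Derpc/Utp4 and Il4i1b/Nup62/Atf5. The last 2 had a peak in every library, with folds of 8.50, 10.3 and 9.38 and then 6.22, 6.27 and 5.77 at Chtf8, a gene of the clamp loader for cohesion, and 9.09, 10.7 and 7.71 and then 6.69, 5.32 and 5.04 at the nuclear pore gene Nup62. The raw folds did not overlap between times, but neither region was called after centring (log2 difference -0.16, limma adjusted p = 0.595, and -0.22, adjusted p = 0.475). Cab39l/Gm45935/Setdb2 had folds of 7.14 in 14 h replicate 2 and of 6.06 and 14.7 in 34 h replicates 1 and 2.

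Promoter windows were searched for short sequences on both strands, and a match is a description. All windows are 300 bases, and one was found for 17492 of 21887 protein-coding genes. The CHR TTTGAA or its variant TTCGAA was in 34.8% of windows of 66 listed cell cycle genes at head-to-head members and in 29.0% of 62 partners. It was in 19.9% of 286 genes at head-to-head members without a listed cell cycle gene, a set that includes replication-dependent histone genes. It was in 44.8% of 145 cell cycle genes and 17.0% of 723 other genes at single-gene regions, and in 18.2% of all windows. Any of the E2F sites TTTCCCGC, TTTGGCGC and TTCCCGCC, the first and last of which overlap, was in 12.1, 6.45, 11.5, 29.7, 14.4 and 4.29% of the same sets. Among listed cell cycle genes, that is 8 of 66 at head-to-head members and 43 of 145 at single-gene regions. The windows of facing genes overlap where starts are close, so they are not independent.

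Other elements were counted in the same way. CCAAT was in 54.5% of the cell cycle windows at head-to-head members, 48.4% of the partners and 39.2% of all windows. The GC box GGGCGG was in 72.7, 66.1 and 46.3%, the ETS core CCGGAAG in 28.8, 33.9 and 11.9%, and the TATA box TATAAA in 7.58, 6.45 and 13.3%. Also searched were the E-boxes CACGTG (9.09, 9.68 and 7.91%) and CAGCTG (12.1, 9.68 and 15.1%), the NRF1 site GCATGCGC (10.6, 4.84 and 3.61%), the YY1 site AAGATGGCG (3.03, 4.84 and 1.92%) and the CRE TGACGTCA (3.03, 0 and 2.33%). The median GC content was 59.7% for the cell cycle genes, 60.7% for the partners and 56.3% for all windows. The median ratio of observed to expected CpG was 0.903, 0.900 and 0.577.

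**Figure D5:**
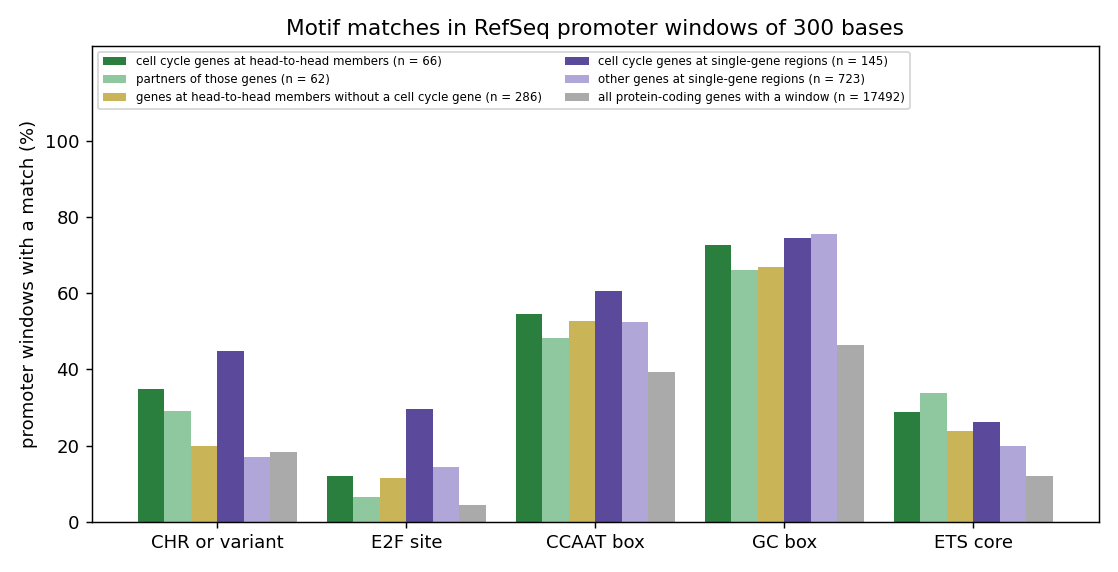
Share of 300-base RefSeq promoter windows with at least 1 match (y axis, percent) for 5 elements (x axis) in 6 sets of genes (colours, with n). Cell cycle genes at head-to-head regions have a CHR or its variant in 34.8% and an E2F site in 12.1%, those at single-gene regions in 44.8 and 29.7%.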

How the data were processed

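The 334 members and the gene, pair and motif lists were chosen with earlier results of these data known. Per the submitters' processing notes, Subread and MACS2 were used with mm10; no version or calling threshold was found in the sources. The deposited lists hold, per library, a fold (linear ratio of immunoprecipitated to background signal at the summit), its −log10 p and −log10 q, and an integer score, all as the authors' caller wrote them, library by library against the input of its time. Summit lists repeat the same positions, per the file headers and values. The inputs have no list. Fragments and background at each summit were solved from fold and p (100% of peaks, within 0.001 on −log10 p); read totals are unknown. Gene boundaries came from RefSeq on GRCm38.p6, and strands and windows from its promoter table (79.9% of 21887 coding genes). Without a genome, exons, introns and region sequences were not analysed here.

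Fold was compared with limma 3.58.1 in R 4.3.3, with Benjamini-Hochberg adjustment over 428 regions. In simulated data, 90% of 80 regions changed by 1 on the log2 scale were called, and 1.44% of the others. The simulated noise was independent between libraries, so error in the shared inputs was left out. Most called members changed by less than 1, so these rates do not give the power or false calls of the real comparison. Shares per library were compared by exact permutation, and member against single-gene fold by exact sign-flip, both two-sided (Python 3.11.15, scipy 1.17.1). Binomial intervals are exact, at 95%, for counting error alone. Named members followed these rules: the 12 with the highest lowest fold, textbook pairs, pairs of listed cell cycle genes, the 5 largest changes each way, members of all 14 h and fewest 34 h libraries, those at 3 genes, the 5 strongest without a listed gene, and those at the distance limit. Other examples were chosen after their values were seen. Some items counted among the members or pairs are not reported here by name.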

Additional observations from a re-analysis of the deposited data

How the results depend on the processing

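Counts of regions rested on the longer lists. With lists of equal length there were 187 shared-boundary regions, with 86.9% of those with strands at head-to-head pairs and 42.8% with a listed cell cycle gene. With at least 3 libraries there were 200, 87.1% and 43.5%. Leaving out 1 library gave 205 to 332 regions, 82.3 to 88.1% and 30.1 to 42.9%. Windows of 500 bp and 2 kb moved the head-to-head share to 87.9% and 73.1%. The log2 fold difference from single-gene regions was 0.0940 with −log10 q of at least 5 (exact sign-flip p = 0.03125). With only regions in all 6 libraries it was 0.0135 (exact sign-flip p = 0.71875). In regions with a cell cycle gene it was -0.10, a restriction chosen after seeing the data, as were the transcript starts that put 122 summits between starts. The cause of these shifts was not tested.

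In the comparison of times by limma, no centring called 0 regions higher and 30 lower, and 0 members higher and 5 lower. Fragments in place of fold called 7 regions higher and 1 lower, and 1 member higher and 0 lower, and turned Cep57/Fam76b to 0.12. Leaving out 1 library gave 33 to 63 regions higher and 15 to 27 lower, and 5 to 10 members higher and 3 to 4 lower, with fewer libraries in each fit. With the replicate number as a block, 74 regions were higher and 45 lower, and 11 members higher and 9 lower. Residuals of same-numbered libraries correlated at 0.0455, 0.260 and 0.0825, so not every pair passed 0.1 and the libraries are taken to share only a number. Replicate 2 correlated best with its own number at both times, while 14 h replicate 1 correlated best with 34 h replicate 3 (0.124). Of 131 settings tried for comparisons, 98 were counted as leaving the result as reported, and of 120 tried for single members, 90 were, with 24 calls lost, 5 gained and 1 direction turned. A result with a p-value counted as unchanged if it kept its direction and its side of 0.05, whatever its size. For shares compared between the times p cannot fall below 0.1, so only a turned direction could have counted as a change. Summits rest on few fragments, which bounds how precise a fold can be.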
